A study of Mus musculus with 12 samples.

Results

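The proteasome is the protease complex that degrades ubiquitin-tagged proteins in the cytosol and nucleus. To ask how its genes were occupied by MOF, the lysine acetyltransferase KAT8 that acts on histone H4, 47 proteasome genes were examined among 20807 autosomal protein-coding genes of GENCODE mouse release M21. They were taken by their names, as every gene of that class whose symbol is Psma, Psmb, Psmc, Psmd, Psme, Psmf or Psmg followed by a number. MOF was mapped on the chromatin of visceral fat by ChIP-seq, in which DNA bound to an immunoprecipitated protein is sequenced. The 12 libraries form 6 groups of 2, with ChIP for MOF, ChIP for histone H3, and input from Mof+/+ mice, which have both copies of the gene for MOF, and from Mof+/- mice, which have 1. All animals were C57BL/6, 8 weeks old and on a standard diet, and the lower Mof dosage of the Mof+/- mice holds for the whole animal and not for adipose tissue only. The design text counts 2 control animals and 3 Mof+/- animals, whereas the sample names number 2 replicates of each genotype, and the study's reporting form likewise names 2 littermates of each. The data described here were 2 peak lists, 1 per genotype, with no value for any single library, so no value below has a replicate error and no difference was tested.

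Proteasomes are built from a barrel-shaped core particle and a regulatory cap. The core stacks outer rings of alpha subunits (Psma genes) around inner rings of beta subunits (Psmb genes), which hold the proteolytic sites. The cap contains a ring of ATPases (Psmc genes) that unfolds substrates and a set of non-ATPase subunits (Psmd genes) that bind ubiquitin chains and remove them. In cells exposed to interferon and in many immune cells, the beta subunits Psmb8, Psmb9 and Psmb10 replace the standard catalytic subunits, and this immunoproteasome favours peptides that are presented on MHC class I molecules. Activators (Psme genes) and an inhibitor (Psmf1) bind the ends of the core, and dedicated chaperones (Psmg genes, Psmd5, Psmd9) assist assembly.

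In all, 19773 peaks were listed for Mof+/+ and 731 for Mof+/-. Each peak carries a fold enrichment, which is the ratio of ChIP fragments over the peak's highest point, its summit, to the background set for that site, with 1 added to both. The number of fragments over a summit was recovered from the fold enrichment and the p-value, with a median of 16 for Mof+/+ and 14 for Mof+/-, so each value rests on few fragments. The weakest listed peak had a −log10 p-value of 3.25 for Mof+/+ and of 4.72 for Mof+/-. The lowest background was 3.52 fragments for the former and 2.26 for the latter. The value of 3.52 recurred at many proteasome genes, among them Psma1, Psma7 and Psmd3, so it is read as a floor and not as a local measurement. By these values the lists differ in depth and in the strength a site needed to be listed, and this cannot be told apart from genotype. Neither peaks nor genes are replicates of a condition. Of 7 adipocyte genes fixed as markers, 4 had a promoter peak in the Mof+/+ list (Adipoq, Plin1, Lipe and Lpl) and 3 had none (Fabp4, Cidec and Pparg). The paper reports MOF at the Pparg promoter in this tissue by ChIP followed by PCR, so a gene without a listed peak may still be bound.

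A Mof+/+ peak lay within 1 kb of an annotated start site, here called a promoter peak, at 39 of the 47 proteasome genes (83.0%), against 42.7% of all autosomal protein-coding genes. Core genes held one in 13 of 14 cases (92.9%), cap genes in 13 of 17 (76.5%), immunoproteasome genes in 3 of 3, activator and inhibitor genes in 5 of 5 and assembly chaperone genes in 5 of 6. The order of core above cap turned under stricter limits. At q-values up to 0.01, 10 of 14 core and 13 of 17 cap genes had one, against 39.0% of all genes. At q-values up to 0.001 the counts were 8 and 12, against 32.7% of all genes. They were 9 and 13, against 37.4%, when peaks had to reach the p-value of the weakest Mof+/- peak. Psma8 and Psmb11, the core subunits of testis and of thymic epithelium, had none. In the Mof+/- list, where 1.37% of all genes had a promoter peak, 1 of the 47 (2.13%) did, the cap subunit gene Psmd3. When only as many Mof+/+ peaks were kept as the Mof+/- list holds, the strongest by p-value, 1 of the 47 (2.13%) had a Mof+/+ promoter peak as well, against 3.32% of all genes, so the excess over all genes was not seen among the strongest peaks.

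**Figure D1:**
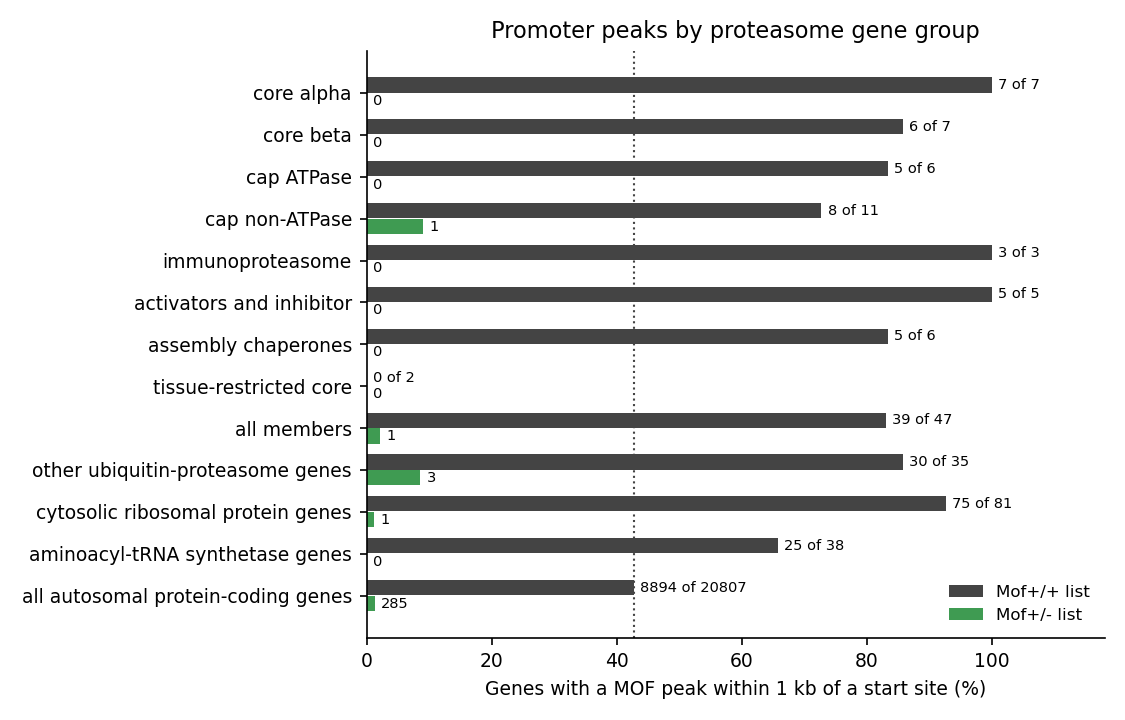
Share of genes with a MOF peak within 1 kb of a start site (x axis, percent) for each proteasome group and comparison group, with dark bars for the Mof+/+ list and green bars for the Mof+/- list. The dotted line marks the share of all autosomal protein-coding genes in the Mof+/+ list, 42.7%, and numbers give genes with a peak. All proteasome groups except the tissue-restricted core genes lie to the right of the line, and the cap non-ATPase gene Psmd3 is the only proteasome gene with a green bar.

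Other groups of housekeeping genes were counted in the same way. Of 81 cytosolic ribosomal protein genes, 75 had a Mof+/+ promoter peak (92.6%) with a median fold enrichment of 4.39, and 1 had a Mof+/- promoter peak. Of 38 aminoacyl-tRNA synthetase genes, 25 had one (65.8%) with a median of 3.76, and 0 had a Mof+/- promoter peak. The proteasome genes thus lay between these groups in share of promoters occupied. Their peaks were of ordinary strength. The median fold enrichment of the strongest promoter peak was 3.98 over the 39 proteasome genes (quartiles 3.54 and 4.64, range 2.56 to 5.97), and it was 3.98 over the 8894 genes with a promoter peak (quartiles 3.34 and 4.87). Their peaks had a median width of 646 bp, against 839.5 bp over all genes with a promoter peak.

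The alpha subunits form the gated outer rings of the core, and all 7 of their genes (Psma1 to Psma7) had a Mof+/+ promoter peak, with a median fold enrichment of 4.09. Psma7 had the strongest, at chr2:180041563-180043326, 1764 bp wide, with a fold enrichment of 5.09, a −log10 q-value of 7.54 and 22 fragments over the summit (GRCm38, as all coordinates here). Psma5 had the weakest, at chr3:108256932-108257474, with a fold enrichment of 3.13, a −log10 q-value of 2.31 and 14 fragments. Psma3 and Psma6 each stood at 4.20, Psma2 at 4.09, Psma1 at 3.76 and Psma4 at 3.41. The Psma6 peak did not lie at the outermost start of that gene but at an internal start 14573 bp downstream of it.

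The beta subunits had lower peaks. Of their 7 genes, 6 had a Mof+/+ promoter peak, with a median fold enrichment of 2.88 and a range of 2.56 to 4.87. Psmb1 had the strongest, a 286 bp peak at chr17:15498011-15498296 with a fold enrichment of 4.87, a −log10 q-value of 6.85 and 21 fragments, whose summit lay in coding sequence at an internal start 1453 bp from the outermost. A wider Psmb1 peak at the outermost start, 1021 bp long and shared with the divergent gene Tbp, which encodes the TATA-binding protein, had a fold enrichment of 3.24. Psmb6, the caspase-like subunit, had the lowest fold enrichment of the 39 genes with a peak, at chr11:70525173-70525678, with a fold enrichment of 2.56, a −log10 q-value of 1.38 and 14 fragments, although Psmb2 had a lower −log10 q-value, 1.15, and 11 fragments. Psmb4 had 3.86, Psmb5, the chymotrypsin-like subunit, 3.10, Psmb3 2.66 and Psmb2 2.65. Psmb7, the trypsin-like subunit, had no promoter peak, and its nearest Mof+/+ peak was 66285 bp away. All 7 alpha genes but 2 of the 6 beta genes with a peak, Psmb1 and Psmb4, reached the p-value of the weakest Mof+/- peak, a level that 87.5% of all genes with a Mof+/+ promoter peak reached.

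In the immunoproteasome genes all 3 promoters carried a Mof+/+ peak, and none of the 3 a Mof+/- peak. Psmb8 had a peak of 3811 bp at chr17:34195379-34199189, with a fold enrichment of 4.34, a −log10 q-value of 5.90 and 21 fragments over a summit in untranslated exon sequence 103 bp downstream of a start. Psmb9 had a peak of 1889 bp at chr17:34186635-34188523, with a fold enrichment of 5.44, a −log10 q-value of 9.18 and 25 fragments over a summit 225 bp upstream of the outermost start. This peak also covered the start of Tap1, a subunit of the transporter that carries peptides to MHC class I molecules. Psmb10, on another chromosome, had a peak of 1624 bp at chr8:105936754-105938377, with a fold enrichment of 5.09, a −log10 q-value of 7.54 and 22 fragments over a summit in coding sequence. That summit lay nearest an internal start 779 bp from the outermost. Their widths exceeded those of 97.8%, 88.4% and 83.4% of the strongest promoter peaks of all genes, for Psmb8, Psmb9 and Psmb10 in turn. In width and in fold enrichment the 3 overlapped the core and cap genes: Psma7 had a wider peak than Psmb10, and Psmd3 and Psmd14 had higher fold enrichments than all 3.

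Each immunoproteasome subunit takes the place of a standard catalytic one, so the genes can be read as pairs. Psmb8 (4.34) replaces Psmb5 (3.10), Psmb9 (5.44) replaces Psmb6 (2.56), and Psmb10 (5.09) replaces Psmb7, which had no promoter peak. In the 2 pairs with a value for both genes, the immunoproteasome gene had the higher fold enrichment. The Psmb9 value is that of the peak shared with Tap1, which cannot be assigned to either gene. Backgrounds were 4.07 fragments for Psmb8 and 3.52 for Psmb5, and 3.78 for Psmb9 and 4.87 for Psmb6. The fragments behind the fold enrichments were few, and their exact 95% Poisson intervals, which cover counting error only, overlapped. They ran from 13.0 to 32.1 for Psmb8 and from 6.92 to 22.2 for Psmb5, and from 16.2 to 36.9 for Psmb9 and from 7.65 to 23.5 for Psmb6. The pairs were not tested, and a missing peak does not show that MOF was absent from Psmb7.

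**Figure D2:**
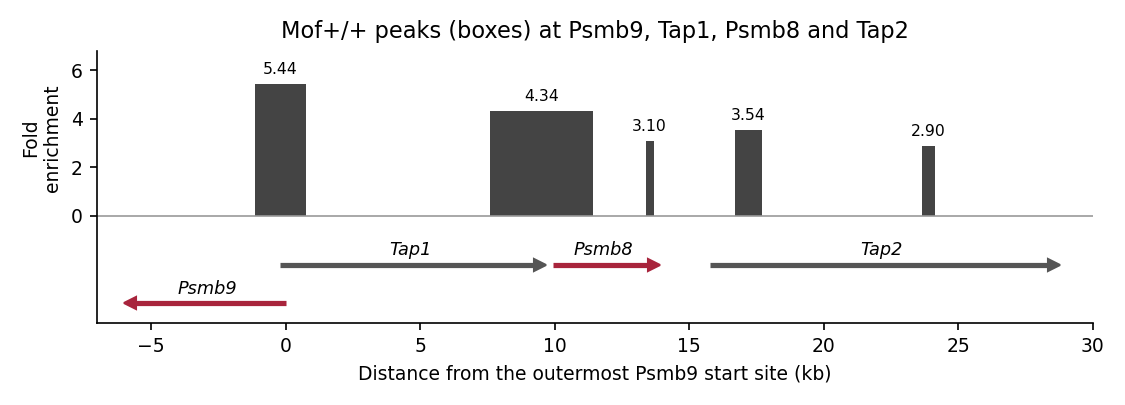
Mof+/+ peaks at the Psmb9, Tap1, Psmb8 and Tap2 genes on chromosome 17, with distance from the outermost Psmb9 start site on the x axis (kb) and fold enrichment on the y axis. Boxes show each peak's extent and height, and arrows show the genes and the direction of transcription, with the proteasome genes in red. The peak of 5.44 spans the shared Psmb9 and Tap1 start region, the widest peak, of 4.34, spans the starts of Psmb8, and no Mof+/- peak fell in this span.

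Psmb8 and Psmb9 lie side by side in the MHC region with Tap1 and Tap2, the other transporter subunit, whose own promoter peak had a fold enrichment of 3.54. The nearest Mof+/- peak was 64111 bp from a Psmb8 start, 61784 bp from a Psmb9 start and 631977 bp from a Psmb10 start. Visceral fat holds immune cells, and these genes are active in them. Of the markers counted alongside, 6 of 7 B cell genes had a Mof+/+ promoter peak, with fold enrichments of 3.10 to 8.85, and 2 of them, Pax5 and Cd74, also had a Mof+/- promoter peak. T cell genes had a Mof+/+ promoter peak in 5 of 7 cases (2.26 to 5.75), adipocyte genes in 4 of 7 (2.59 to 5.09) and macrophage genes in 1 of 7 (Cd68, 4.87). Of the T cell markers, Cd4 and Cd28 had none. In this bulk tissue, fewer cells of a type and less MOF per cell cannot be told apart, and the part of immune cells in the immunoproteasome peaks was not tested.

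Among the cap ATPases, which unfold substrates and feed them into the core, 5 of 6 had a Mof+/+ promoter peak, within a narrow range of fold enrichment from 2.90 to 3.76. Psmc6 had the highest, at chr14:45329309-45329629, with a −log10 q-value of 3.67 and 16 fragments, and Psmc2 the lowest, at chr5:21784572-21785135, with a −log10 q-value of 2.20 and 16 fragments over a higher background of 4.87 fragments. Neither of these peaks reached a start of its gene, with edges 159 bp and 148 bp upstream. Psmc1 stood at 3.75 and Psmc3 and Psmc5 at 3.54. Psmc4 had no promoter peak, and its nearest Mof+/+ peak was 119223 bp away.

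The non-ATPase cap subunits held both the strongest promoter peaks of the proteasome genes and the most missing ones. A Mof+/+ promoter peak was listed for 8 of 11, with a median fold enrichment of 4.42. Psmd3, a subunit of the cap's lid, had the highest value of all 47 genes, 5.97. Psmd14, the enzyme that removes ubiquitin chains at the entry of the core, had 5.75 at chr2:61711280-61711929, and Psmd11 had 5.31 at chr11:80428699-80429259. Psmd13 had the lowest, 3.58, at chr7:140881926-140882571, with a −log10 q-value of 4.22 and 20 fragments, a peak shared with the neighbouring gene Sirt3. Psmd8 stood at 4.65, Psmd12 at 4.20, Psmd4, a ubiquitin receptor, at 4.19 and Psmd1 at 3.87. Psmd2, Psmd6 and Psmd7 had no promoter peak. Psmd7 is the partner with which Psmd14 forms a dimer, so a gene with one of the highest peaks and one with none encode the members of that pair. All 13 cap genes with a peak reached the p-value of the weakest Mof+/- peak.

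Psmd3 was the only proteasome gene with a promoter peak in both lists. In Mof+/+ tissue the peak lay at chr11:98682091-98683174, 1084 bp wide, with a fold enrichment of 5.97, a −log10 q-value of 10.5 and 26 fragments (95% Poisson interval 17.0 to 38.1) over a background of 3.52, and its summit was in untranslated exon sequence 115 bp downstream of a start. In Mof+/- it lay at chr11:98683024-98683299, 276 bp wide, with a fold enrichment of 3.46, a −log10 q-value of 1.56 and 13 fragments (6.92 to 22.2) over a background of 3.05, and it would not pass a q-value limit of 0.01. The Mof+/- peak was thus the narrower and weaker of the pair, and the fragment intervals overlapped. The peaks shared 151 bp, at the downstream end of the Mof+/+ peak, and their summits were 559 bp apart. The Mof+/- summit lay in an intron 674 bp from a start, and the nearer edge of that peak was 433 bp from a start. By p-value the Mof+/+ peak ranked 660 of 19773, and it was the single proteasome peak among as many of the strongest Mof+/+ peaks as the Mof+/- list holds.

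For the other 46 genes the nearest Mof+/- peak was at least 5799 bp from a start, the distance found for Psma3. Over all 47 the median distance was 733750 bp. In strength the genes were close to the rest of the Mof+/+ list. Of the 39 with a Mof+/+ promoter peak, 34 (87.2%) had one at or past the p-value of the weakest Mof+/- peak, against 87.5% of all genes with a Mof+/+ promoter peak. The 5 that fell short were Psmb2, Psmb3, Psmb5, Psmb6 and Psmf1. That threshold makes no allowance for the lower background of the Mof+/- list, so whether the sites of the other 34 would have been listed at that depth was not tested.

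Every activator and inhibitor gene had a Mof+/+ promoter peak, with a median fold enrichment of 3.98. Psme2, a subunit of the interferon-induced activator ring, had the highest, 5.34, at chr14:55591112-55591582, with a −log10 q-value of 8.67 and 24 fragments, and the peak was shared with Rnf31, a ubiquitin ligase gene on the other strand. Psme1, which encodes the partner subunit of that ring, had 3.98 over a peak of 2658 bp, and its second promoter peak, of 3.32, was shared with Emc9. Psme3, a nuclear activator, stood at 4.87, and Psme4, a large single-chain activator, at 3.89. Psmf1 had the lowest, 2.88, at chr2:151741039-151741310, a peak of 272 bp with a −log10 q-value of 1.59 and 12 fragments, which lay at an internal start 2893 bp from the outermost one.

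Of the assembly chaperones, 5 of 6 had a Mof+/+ promoter peak, with a median fold enrichment of 4.09. Psmg1, which with Psmg2 starts assembly of the alpha ring, had the highest, 4.64, at chr16:95990624-95991326, with a −log10 q-value of 6.98 and 23 fragments. Psmg3 had the lowest, 2.89, at chr5:139826485-139827224, with a −log10 q-value of 2.52 and 18 fragments over a background of 5.57. Psmg4, its partner, stood at 4.20 and Psmg2 at 3.98. Of the chaperones of the cap's ATPase ring, Psmd5 had a peak of 4.09 at an internal start 4006 bp from the outermost one, and Psmd9 had none.

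**Figure D3:**
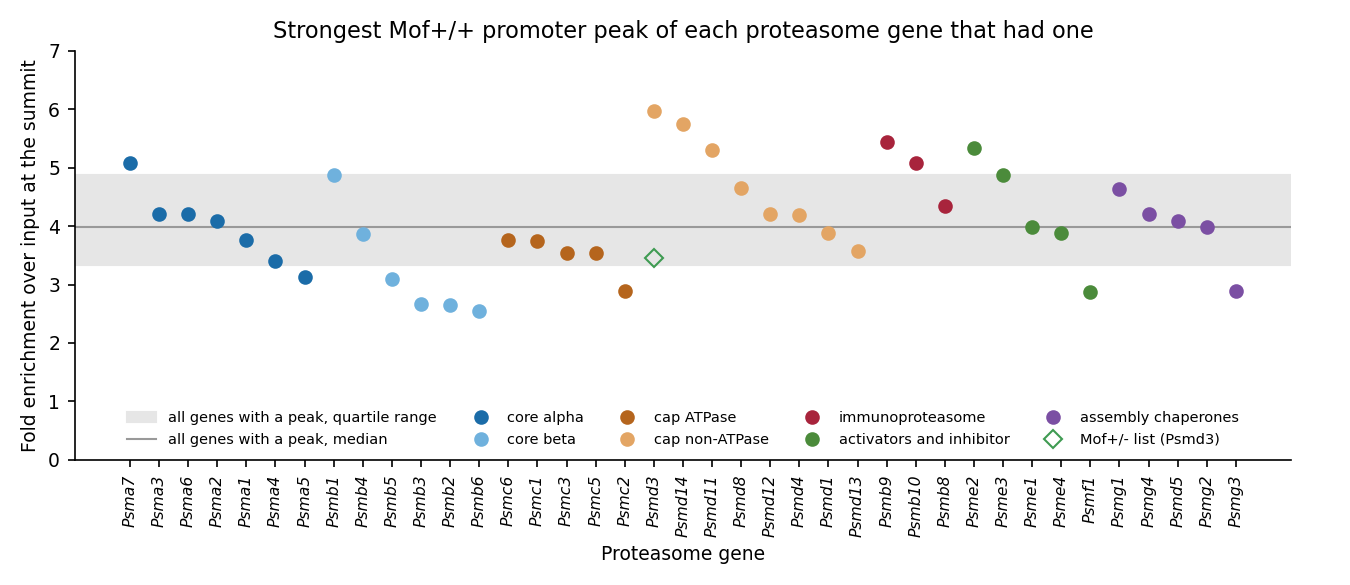
Fold enrichment over input at the summit (y axis) of the strongest Mof+/+ promoter peak of each of the 39 proteasome genes that had one (x axis), coloured by role, with the open green diamond for the Mof+/- peak of Psmd3. The grey band spans the quartiles, 3.34 to 4.87, and the line the median, 3.98, over all genes with a promoter peak. The cap ATPases lie below the line, and 4 of the 6 core beta genes lie below the band.

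The 8 genes without a Mof+/+ promoter peak were Psma8, Psmb7, Psmb11, Psmc4, Psmd2, Psmd6, Psmd7 and Psmd9. Their nearest Mof+/+ peaks were 3170 bp (Psmb11) to 151740 bp (Psmd7) from a start, with a median of 35047 bp, so widening the window to 3000 bp added none of them. Psmd2, a large scaffold subunit of the cap, had its nearest peak at 13304 bp, Psmd9 at 17855 bp, Psma8 at 22219 bp and Psmd6 at 47875 bp. On the other side of the limit, the gene inside it that lay nearest to it was Psmb3, whose peak edge was 669 bp from a start. The limit of 1 kb thus fell in a gap between 669 bp and 3170 bp.

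MOF peaks were more frequent at promoters rich in CpG sites, and proteasome promoters were richer than most, with a median of 56 CpG sites within 500 bp of the outermost start against 43 over all genes. All genes were therefore split into 5 classes by this number. The share of all genes with a Mof+/+ promoter peak rose from 7.08% in the class with 0 to 10 CpG sites to 21.1% (11 to 27), 45.9% (28 to 54), 67.2% (55 to 76) and 74.4% (77 to 172). Proteasome genes had a promoter peak in 1 of 2, 3 of 4, 13 of 15, 18 of 22 and 4 of 4 cases, in the same order, each a higher share than that of its class. Weighted to the classes of the proteasome genes, the share over all genes was 54.5%, against 83.0% for the proteasome genes. CpG sites were counted at the outermost start but peaks at any start, and in the lowest classes the peaks of Psmf1, Psma6, Psmd5 and Psmb10 lay nearest another start. With peaks counted at the outermost start only, an alternative chosen after seeing the data, the first class held 0 of 2 (3.07% of all genes) and the second 1 of 4 (14.2%), and the other classes held 13 of 15, 18 of 22 and 4 of 4 (43.4%, 65.7% and 73.2% of all genes). The higher share in the first class was thus lost, and over all classes 76.6% of proteasome genes then had a peak against a weighted 52.2%. Conversely, Psmb7, Psmc4, Psmd2, Psmd6 and Psmd7 had between 53 and 70 CpG sites and no promoter peak.

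**Figure D4:**
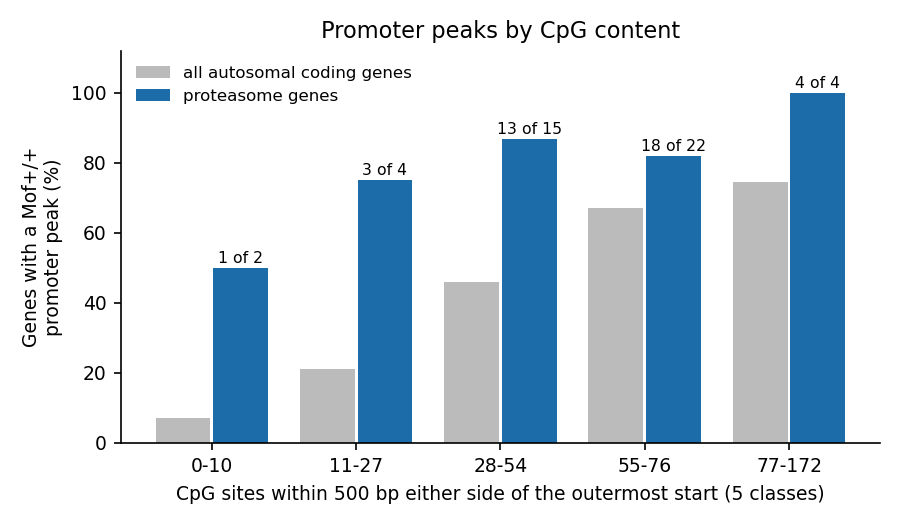
Share of genes with a Mof+/+ promoter peak (y axis, percent) in 5 classes of CpG content around the outermost start (x axis, number of CpG sites), for all autosomal protein-coding genes in grey and proteasome genes in blue, with the number of proteasome genes above their bars. The blue bar is higher than the grey one in each class, but the first class holds 2 proteasome genes, and 0 of them had a peak at the outermost start.

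Peaks of proteasome genes sat close to start sites. Of the 39 strongest promoter peaks, 31 covered a start (79.5%, against 74.3% over all genes with a promoter peak), and 38 had the summit within 500 bp of one (97.4%, against 84.0%). The exception was Psmb3, with a summit 728 bp upstream. Summits lay downstream of the nearest start in 23 genes and upstream in 16, with a median of 43 bp downstream, against 59 bp over all genes. By annotation, 13 summits lay outside the gene, 9 in untranslated exon sequence, 7 in coding sequence, 5 in introns and 5 in exons of noncoding transcripts. Proteasome genes also had more annotated starts, with a median of 5 against 3, which gives a peak more chances to count. With the outermost start only, 36 genes had a promoter peak, and Psma6, Psmd5 and Psmf1 lost theirs, while the share over all genes fell to 39.6%.

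**Figure D5:**
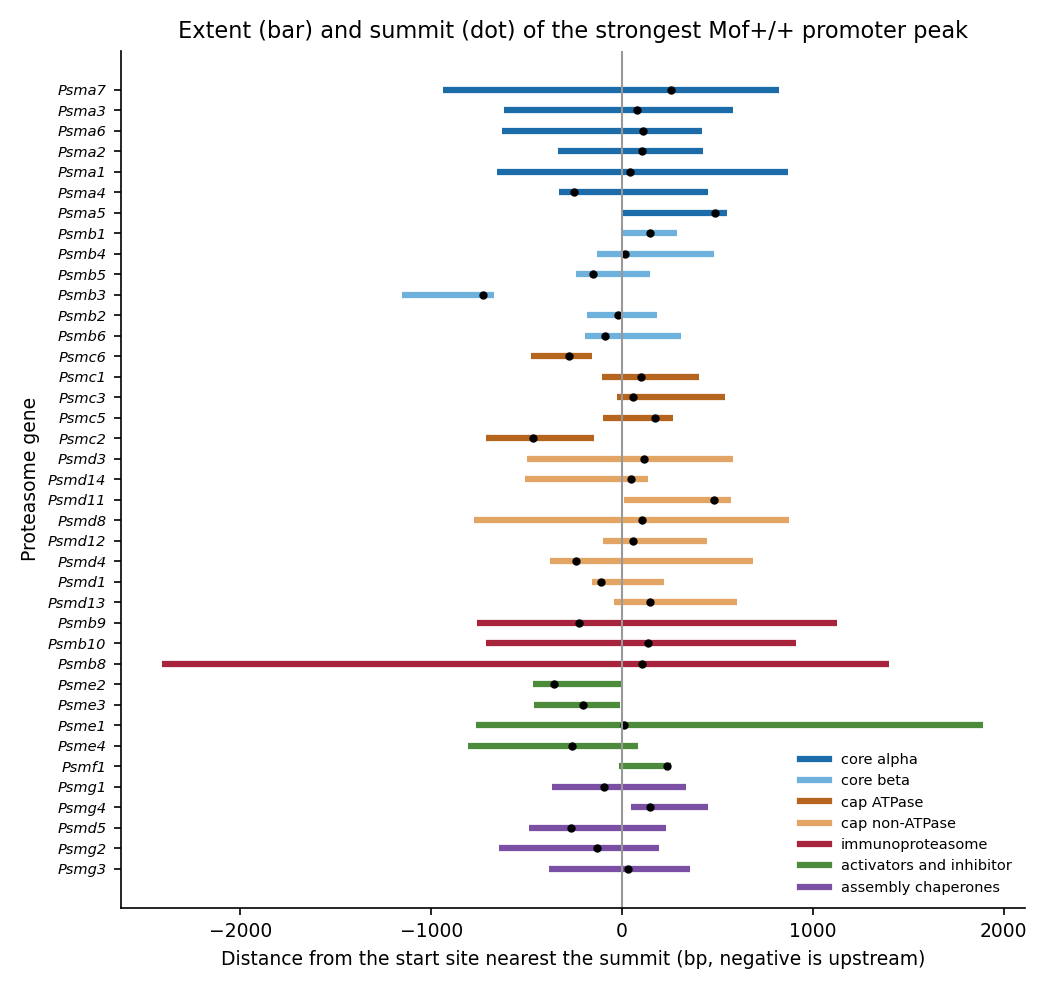
Extent (bar) and summit (black dot) of the strongest Mof+/+ promoter peak of 39 proteasome genes, by distance from the start site nearest the summit (x axis, bp, negative is upstream), coloured by role and ordered within each role by fold enrichment. In all but Psmb3 the summit is within 500 bp of the start, and the longest bars belong to Psmb8 (3811 bp) and Psme1 (2658 bp).

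Several proteasome genes share their promoter with a gene on the other strand. Only outermost starts were compared. That of another gene lay within 1000 bp upstream on the opposite strand for 8 of the 47 (17.0%, against 11.1% of all genes). These were Psma2 with Mrpl32, Psma7 with Ss18l1, Psmb1 with Tbp, Psmc2 with Dnajc2, Psmc3 with Gm13778, Psmc5 with Ftsj3, Psme2 with Rnf31 and Psmg2 with Cep76. Psmb9 was not among them, because the Tap1 start lies within Psmb9, downstream of its outermost start. All 8 had a Mof+/+ promoter peak, as did 72.0% of all genes with such a neighbour, and 31 of the other 39 proteasome genes did (79.5%), against 39.1% of all other genes. At 12 proteasome genes a promoter peak also lay within 1 kb of a start of another coding gene, a share of 30.8% against 27.3% over all genes with a promoter peak, and a peak list cannot assign such a peak to either gene.

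Promoter sequences were compared next, since the data show which of these windows lay under a peak. RefSeq promoter windows, from 250 bases before a start to 50 after it, were held for 39 of the 47 genes. They were not held for Psma8, Psmb1, Psmb2, Psmb7, Psmc3, Psmd3, Psmd7 and Psmg2. Stretches of 250 bases (GRCm38.p6) are shown for the high peaks of Psmd14 (chr2:61711474-61711723, plus strand, all under the peak) and Psmd11 (chr11:80428395-80428644, plus strand, no base under the peak, which begins downstream) and, for contrast, for Psmd2 (chr16:20651432-20651681, plus strand), which had no promoter peak. Capitals mark CCAAT boxes in Psmd14 and the ETS core in Psmd11 and Psmd2, on either strand.
Psmd14: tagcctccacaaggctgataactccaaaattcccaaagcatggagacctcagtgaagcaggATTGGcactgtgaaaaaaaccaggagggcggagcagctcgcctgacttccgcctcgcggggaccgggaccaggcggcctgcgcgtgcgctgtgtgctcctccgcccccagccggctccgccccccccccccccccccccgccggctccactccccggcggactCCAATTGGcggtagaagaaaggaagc
Psmd11: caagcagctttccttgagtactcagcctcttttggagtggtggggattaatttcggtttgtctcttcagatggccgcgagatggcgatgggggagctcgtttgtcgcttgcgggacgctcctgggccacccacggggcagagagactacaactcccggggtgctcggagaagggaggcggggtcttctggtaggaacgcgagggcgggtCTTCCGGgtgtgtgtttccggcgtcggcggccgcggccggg
Psmd2: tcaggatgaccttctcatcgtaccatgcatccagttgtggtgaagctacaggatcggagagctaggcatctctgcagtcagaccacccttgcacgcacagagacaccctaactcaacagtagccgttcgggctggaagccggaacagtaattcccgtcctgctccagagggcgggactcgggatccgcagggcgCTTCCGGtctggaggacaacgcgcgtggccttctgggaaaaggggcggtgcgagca

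The ETS core CCGGAAG, searched on both strands as the other motifs were, was in 14 of the 39 windows (35.9%) and in 13.6% of the windows of 15704 autosomal protein-coding genes. It was in 9 of 14 cap genes (Psmc1, Psmc2, Psmc6, Psmd2, Psmd4, Psmd6, Psmd11, Psmd12 and Psmd13), 2 of 5 activator and inhibitor genes (Psme3 and Psme4), 2 of 5 chaperone genes (Psmg1 and Psmg3), 1 of 11 core genes (Psma6) and 0 of 3 immunoproteasome genes, and differences between these groups were not tested. Of those 9 cap genes 7 had a Mof+/+ promoter peak, and Psmd2 and Psmd6 did not. Over all genes with the motif 74.8% had a promoter peak. The CCAAT box, the site of the factor NF-Y, was in 13 windows (33.3%, against 41.7% of all), among them 6 of 11 core genes (Psma1, Psma2, Psma3, Psma6, Psma7 and Psmb3) and, of the immunoproteasome genes, Psmb9. A motif match is a description of the letters and not evidence of a bound factor.

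Stretches of the 3 immunoproteasome promoters are shown to set them beside Psmb6, the subunit that Psmb9 replaces, and Psme1, an interferon-induced activator. They are Psmb8 (chr17:34197975-34198224, plus strand) and Psmb9 (chr17:34187301-34187550, minus strand), both wholly under their peaks, Psmb10 (chr8:105938363-105938612, minus strand, 15 bases under the peak), Psmb6 (chr11:70525137-70525386, plus strand, 214 bases) and Psme1 (chr14:55578274-55578523, plus strand, wholly under its peak). The Psmb10 summit lay outside its stretch, nearest an internal start 779 bp from the outermost. Capitals mark the CCAAT box of Psmb9, the antioxidant response element of Psmb6 and the interferon response element of Psme1, each read on either strand.
Psmb8: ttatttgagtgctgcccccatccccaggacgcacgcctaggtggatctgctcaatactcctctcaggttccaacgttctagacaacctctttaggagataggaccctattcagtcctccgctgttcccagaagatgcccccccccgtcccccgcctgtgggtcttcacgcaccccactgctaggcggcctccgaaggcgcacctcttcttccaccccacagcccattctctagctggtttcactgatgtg
Psmb9: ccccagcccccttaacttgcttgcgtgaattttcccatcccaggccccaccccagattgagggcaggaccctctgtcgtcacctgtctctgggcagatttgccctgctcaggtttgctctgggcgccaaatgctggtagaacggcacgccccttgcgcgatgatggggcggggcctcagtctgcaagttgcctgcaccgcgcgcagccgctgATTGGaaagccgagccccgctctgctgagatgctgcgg
Psmb10: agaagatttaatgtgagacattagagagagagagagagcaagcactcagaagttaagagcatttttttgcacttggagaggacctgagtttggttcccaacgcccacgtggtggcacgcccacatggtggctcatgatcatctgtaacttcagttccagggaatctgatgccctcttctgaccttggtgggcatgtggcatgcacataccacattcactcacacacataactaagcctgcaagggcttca
Psmb6: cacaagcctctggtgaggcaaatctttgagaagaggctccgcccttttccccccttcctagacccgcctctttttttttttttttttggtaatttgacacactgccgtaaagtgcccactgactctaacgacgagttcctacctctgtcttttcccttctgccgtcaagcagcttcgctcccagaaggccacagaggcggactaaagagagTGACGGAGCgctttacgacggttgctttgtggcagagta
Psme1: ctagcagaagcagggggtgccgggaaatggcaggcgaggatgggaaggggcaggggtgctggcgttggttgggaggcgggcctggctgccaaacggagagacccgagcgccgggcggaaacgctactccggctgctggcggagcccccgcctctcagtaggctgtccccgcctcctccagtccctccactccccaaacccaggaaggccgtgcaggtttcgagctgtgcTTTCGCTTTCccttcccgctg

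The interferon response element, searched for as GAAA, any 2 bases and GAAA, was in none of the 3 immunoproteasome windows, which says only that these letters are not in these stretches. It was in 5 of the 39 windows (12.8%, against 4.05% of all), those of Psmb3, Psmd4, Psmd9, Psme1 and Psmg4. The antioxidant response element, searched for as TGACNNNGC, is read by the factor Nfe2l1, which raises proteasome genes when proteasome activity is low. It was in 6 windows (15.4%, against 15.1% of all), those of Psmb5, Psmb6, Psmc6, Psmd9, Psmd12 and Psme4. The motif of nuclear respiratory factor 1 was in Psma2 and Psmg1 (5.13%, against 1.55% of all), and that of YY1, searched for as AAGATGGCG, in Psmb6 and Psmc5 (5.13%, against 2.24%).

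Other genes of the ubiquitin-proteasome system and of peptide presentation were counted from a list of 36, of which 35 were found as autosomal protein-coding genes. A Mof+/+ promoter peak was listed for 30 of them (85.7%), with a median fold enrichment of 4.42. Usp14, Ddi2, Ufd1, Zfand2a and Ube3c had none. Among the highest values were those of Nfe2l2, an activator of antioxidant genes (7.08, −log10 q-value 14.7, 31 fragments), and Rad23b, a shuttle that brings ubiquitinated proteins to the proteasome (5.97). These compare with 5.97 for Psmd3, the highest of the proteasome genes. In the Mof+/- list 3 of the 35 had a promoter peak (8.57%), among them Ubb, a polyubiquitin gene (fold enrichment 4.91), and Ubqln1, also a shuttle (3.46).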

How the data were processed

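MOF ChIP, H3 ChIP and input libraries were made from Mof+/+ and Mof+/- visceral white adipose tissue, with chromatin cut by CviKI-1 and sonication. The authors aligned reads to GRCm38 using snakePipes and called peaks over input using MACS2 (2.1.1.20160309.3 per the labels), keeping q-values up to 0.1. The deposited lists give, for the summit of a peak, the authors' fold enrichment (a ratio), a −log10 p-value, a −log10 q-value and its position. Whether replicates were pooled is not stated, and lists were assigned to genotype by name. Library totals are not in the lists, so depth is known only from fragments over summits. The deposited score column, H3 libraries and signal tracks were not used here. A separate merging of peaks within 1000 bp was tried only as an alternative.

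A gene had a promoter peak when a peak edge lay within 1000 bp of a GENCODE M21 start, and its strongest peak by fold enrichment was used. Fragments and background were solved from fold enrichment and p-value (tolerance 0.01 in −log10 p-value), which gave a solution for 99.9% of Mof+/+ and 97.9% of Mof+/- peaks, and the scripts were tested on simulated data. Enzyme sites (RGCY) under strongest peaks had a median of 25.6 per kb for proteasome genes and 25.2 for all genes. Full values were given for the immunoproteasome genes, genes with a Mof+/- peak, and the highest and lowest of each role. Some listed genes are not reported here. Members and lists were chosen with earlier results of these data known. Alternatives varied the q-value, window, peak position, start sites, merging, naming and list size. numpy 2.4.6, scipy 1.17.1, pysam 0.24.0 and matplotlib 3.10.9 were used.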

Additional observations from a re-analysis of the deposited data

How the results depend on the processing

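Of 82 values recomputed under other settings, 70 were within 1.5 times the reported one and 12 were not. When as few Mof+/+ peaks were kept as the Mof+/- list holds, the strongest by p-value, 1 of the 47 proteasome genes kept a promoter peak, with 0 core, 1 cap, 0 immunoproteasome, 0 activator or inhibitor and 0 chaperone genes, against 3.32% of all genes, as fewer peaks are counted by construction. With q-values limited to 0.001, 8 of 14 core genes and 12 of 17 cap genes kept a Mof+/+ promoter peak, against 32.7% of all genes. The Mof+/- count of 1 became 0 with q-values limited to 0.01, 0 with the limit of 0.001, and 0 when the peak had to overlap a start. Over all genes the Mof+/- shares were 1.10%, 0.702% and 0.485% in the same order, so a count of 0 does not set the 47 genes apart. Under the remaining settings 31 to 40 proteasome genes had a Mof+/+ promoter peak. The 40 include Psmc3ip, added when letters were allowed after the number. The 31 were found with the limit of 0.001, where 32.7% of all genes had one and Psma5, Psmb2, Psmb3, Psmb5, Psmb6, Psmc2, Psmf1 and Psmg3 were lost. No paired analysis was possible because the lists hold no value per library. For the same reason no replicate could be left out. Fragments over summits, 11 to 26 for the proteasome genes, limit every fold enrichment, and a site without a listed peak may be bound below the threshold.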

Other observations

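Genes with related symbols fell outside the naming rule. Psmc3ip, which encodes a partner of the meiotic recombinases and not a proteasome subunit, had a Mof+/+ peak at chr11:101095535-101095918, 384 bp wide and 99 bp from a start, with a fold enrichment of 4.56 and a −log10 q-value of 8.24. It had no Mof+/- promoter peak. Psmd10, an assembly chaperone gene on chromosome X, and Psme2b had no promoter peak in either list. By chromosome, the 47 proteasome genes lay on 15 autosomes.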
